A study of Drosophila melanogaster with 11 samples.

Results

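The regions described here are the DNA stretches between genes on the large autosomal arms 2L, 3L and 3R where the repressor m8, fused to a bacterial methyltransferase, left its mark in Drosophila melanogaster embryos. They were chosen as the peaks in the Qseq table of the authors that lie on 1 of these arms and for which the table names no intersecting gene. The rule gave 516 of 3973 peaks, of which 154 lie on 2L, 197 on 3L and 165 on 3R. In all 1004 peaks of the table lay between genes, those not described here being on other sequences. On the same 3 arms 1839 peaks were said to intersect a gene, and these are used below only to show where the peaks between genes differ. The study as a whole listed 11 libraries in 6 conditions, made to ask which genes Su(H), m5 and m8 meet in the embryonic nervous system. All values below come from a single library of the condition m8-DamID, in which embryos carried the transgene UAS-m8-DamID without a Gal4 driver, so that the leak of the UAS promoter supplied a low level of the fusion protein. The embryos were at stage 9 to 16, collected over 15 hours at 26 °C, and were used whole, so that signal from all tissues is summed. The condition has 2 libraries, the tables hold 1 of them, and the sources used here do not say which. No library of the unfused methyltransferase is among the 11, so signal of the enzyme alone cannot be told apart from signal of the m8 fusion at any peak. There is no replicate for any value, and no test between peaks was run.

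The protein m8 is a basic helix-loop-helix repressor of the Hairy and E(spl) class, and its gene is a classical target of Notch signaling. Repressors of this class are known to bind the E box variants CACGTG and CACGCG and the N box CACNAG, while Su(H), which carries the Notch signal to DNA, is known to bind sites such as CGTGGGAA and TGTGGGAA. Many developmental genes of the fly lie beside wide stretches of DNA without coding genes, and such stretches are known to hold the enhancers that switch the genes on in parts of the embryo. In DamID the methyltransferase marks the adenine of GATC near the bound sites, DpnI cuts the marked GATC in its middle, and the fragments between cuts are amplified by PCR and sequenced. A peak is therefore shaped by where GATC lies as well as by where the protein was. The level of a peak is given in RPM, the reads of the peak per 1000000 reads of the library. The library total was 1925155 reads, so 39 reads equal 20.3 RPM, and 20 RPM was the lower limit set by the authors. Ranges in brackets after a level are 95% intervals from the exact Poisson distribution of the read count, and they leave out any error but that of counting. Reads copied by PCR are not separate molecules, so the true error is larger.

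On 2L the positions of the table match the Release 6 genome base for base, which was seen from the cuts themselves. Of the 694 peaks on 2L, 148 (21.3%) begin exactly 2 bases after the first base of a GATC, the place where DpnI cuts, and 27 of the 154 peaks between genes do so (17.5%). On 3R only 1 of 884 peaks does, and on 3L the match holds for 42 of 193 peaks before position 5000000 but for 1 of 584 after it. Sequence and Release 6 annotation are therefore used on 2L alone, and positions on 3L and 3R are in the numbering of the authors. The sequences below show the start of 3 peaks on the plus strand of Release 6, with the GATC in capitals, in order of RPM. They lie at chr2L:1631930-1631959, chr2L:14456175-14456204 and chr2L:17450541-17450570, and the peaks they begin have 345.4, 166.7 and 116.4 RPM.
RFeSP/chinmo: aaacacacctataGATCttatattcgtatt
CG15283/noc: tgttataaattacGATCtcgaccaacttgt
dl/CG5050: gcgaagagtgcgaGATCagcatgtgctgag

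Matches to the motifs were also found inside some of the highest peaks on 2L, and the next set shows 6 of them with the match in capitals. The peak with the highest RPM of all, between Rh5 and CG6734, holds the reverse complement of TGTGGGAA at chr2L:12011385-12011414. A peak between RFeSP and chinmo holds a CACGCG that runs into a CGTGGGAA, at chr2L:1644875-1644904. A single CACGTG lies in the peak between Atet and CG15429, at chr2L:4350979-4351008. The stretch shown there also holds the reverse complement of CACGCG, which is left in small letters. The highest peak between SoxN and CG32986 holds CACGTG in 2 places, of which the one at chr2L:8858666-8858695 is shown. The peak between wor and CG4161 holds a CACGTG near its left end, at chr2L:15426600-15426629, and the reverse complement of TGTGGGAA near its right end, at chr2L:15427119-15427148. These peaks were picked for display because they hold a match, and a match is a description of the letters, not a measured site.
Rh5/CG6734: tcccgtccgaaTTCCCACAgggcactaaca
RFeSP/chinmo: taaactgtgCACGCGTGGGAAtcgaaattg
Atet/CG15429: ctgcgcgtgacgCACGTGgttcattgtagt
SoxN/CG32986: aatttccctagtCACGTGtgaggaaaccac
wor/CG4161, left: gagtaggatcagCACGTGacattggctccg
wor/CG4161, right: atcatcatctaTTCCCACAtctgccgactg

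Peaks between genes had a lower median level and a lower median length than peaks in genes. Their RPM ranged from 20.3 to 775.5 with a median of 35.8 and quartiles of 25.5 and 59.3, against a median of 42.1 and quartiles of 28.6 and 77.9 in genes. Their length ranged from 211 to 2610 bp with a median of 679.5 bp, against 791 bp in genes. The same order held on each arm, with median RPM of 34.8 on 2L, 36.4 on 3L and 34.3 on 3R between genes and of 43.6, 44.7 and 40.5 in genes. Per kb of peak the medians over the 3 arms were close, with 56.6 RPM per kb between genes and 56.3 in genes, but the arms differed in direction. Between genes the level per kb was lower than in genes on 2L (53.4 against 56.4) and on 3L (55.1 against 58.2) and higher on 3R (62.4 against 53.7). Without the cluster of 24 short peaks at the Hsp70B genes, described below, it was 57.7 RPM per kb on 3R and 55.1 RPM per kb over the 3 arms. Across the peaks between genes RPM and length had a Spearman correlation of 0.64, and in genes of 0.77, which is a description of peaks of 1 library that share its depth. At least 100 RPM was reached by 61 peaks between genes (11.8%) and by 17.6% of those in genes, and 57.8% against 46.9% lay below 40 RPM. All peaks between genes together held 57782 reads, or 3.001% of the library, while those in genes held 13.6%.

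**Figure D1:**
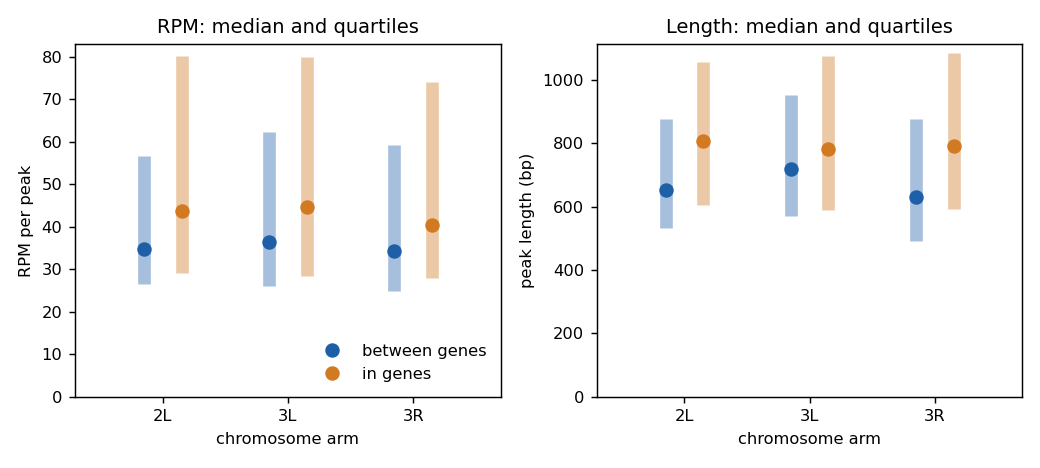
RPM (left) and length in bp (right) of the peaks between genes (blue) and in genes (orange) on each arm, with a point for the median and a bar from the first to the third quartile. On each arm both medians are lower between genes, and the bars overlap widely: over the 3 arms the upper quartile between genes is 59.3 RPM, above the median of 42.1 RPM in genes.

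The share of peaks that fell between genes was 21.9% over the 3 arms, with 22.2% of 694 on 2L, 25.4% of 777 on 3L and 18.7% of 884 on 3R. The highest share, on 3L, and the lowest, on 3R, were not set against the amount of DNA between genes there, since the numbering of the tables on these arms does not match Release 6. On 2L, 30.1% of the bases up to the last peak lie outside all Release 6 genes, while 18.3% of the peaks of 2L do. These are unlike measures, since a peak counts only if its whole length misses every gene, which lowers its share. Of windows of 653 bp on 2L, a length near the median of the peaks between genes there, 8799 of 34333 lie between genes. In Release 6 some of these stretches carry genes that the table does not name. Of the 154 peaks on 2L, 27 (17.5%) overlap a Release 6 gene, in 23 cases a long non-coding RNA gene, in 1 a histone pseudogene and in 3 a protein-coding gene. These last are a pair of overlapping peaks in Ets21C, an ETS family factor, at 32.7 and 23.4 RPM, and a peak of 201.5 RPM (182 to 223) in vri, a clock and growth regulator. The 27 peaks had a median of 37.4 RPM and the other 127 one of 34.3 RPM. Both genes were chosen for mention once their values were known.

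The 10 highest peaks between genes had 274.8 to 775.5 RPM and lay beside genes of many kinds. The highest, from 12010365 to 12011975 on 2L between Rh5, which encodes a light sensor of the eye, and CG6734, had 775.5 RPM (737 to 816) from 1493 reads. It ranked 16 among all 3973 peaks, and on Release 6 it sits in a gap of 3695 bp. The next were a peak of 530.9 RPM (499 to 564) between CG6168 and CG6163 on 3L and one of 470.6 RPM (440 to 502) between CG13896 and CR43785 on 3L. The last of these is only 898 bp long, so that per length it was the highest of the 3, with 524.1 RPM per kb against 481.4 at Rh5 and 344.7 at CG6168. CR42756 and CG14372 on 3R flank a peak of 441.5 RPM (412 to 472), and CG34057 and CG13905 on 3L one of 356.3 RPM (330 to 384). Between nimC3, a Nimrod family gene whose relatives encode receptors of blood cells, and CG4500 on 2L lay a peak of 325.7 RPM (301 to 352). A peak of 313.7 RPM (289 to 340) lay between Atet, which encodes an ABC transporter, and CG15429 on 2L. On Release 6 this peak and the one at nimC3 overlap the long non-coding RNA genes CR44700 and CR31840. CG43950 and CG43949 on 3L flank a peak of 286.2 RPM (263 to 311).

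The remaining pair of the 10 lay together between RFeSP, which encodes an iron-sulfur protein of the respiratory chain, and chinmo, a zinc finger gene known for setting temporal identity in neural lineages. The peak from 1631945 to 1633611 on 2L had 345.4 RPM (320 to 373), and the one from 1644641 to 1645720 had 274.8 RPM (252 to 299). The other peak of this gap, from 1646311 to 1648219, had 173.0 RPM (155 to 193). The 3 peaks span 16275 bp and none is below 173.0 RPM, which is above the upper quartile of 59.3 RPM for peaks between genes. The first of them begins at a DpnI cut, shown above, the second holds the CACGCG that runs into a Su(H) site, and the last overlaps the long non-coding RNA gene CR45695 of Release 6.

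**Figure D2:**
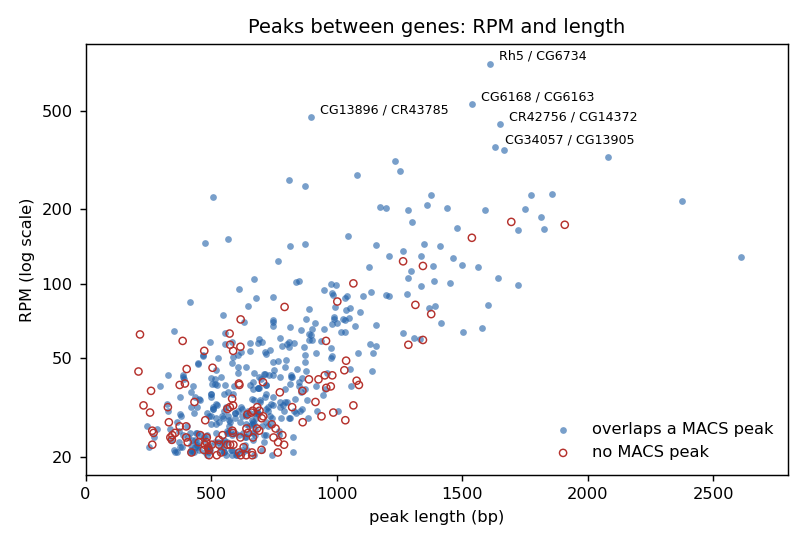
RPM (log scale) against length in bp for all 516 peaks between genes, filled where the peak overlaps a peak called by MACS in the same library and open where it does not. The 5 highest are named by their flanking genes. Long peaks tend to be high (Spearman 0.64), while CG13896/CR43785 reaches 470.6 RPM at 898 bp.

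At the other end, 12 peaks stood at the lowest level in the table, 39 reads or 20.3 RPM (14.4 to 27.7). Among these are the lower of the peaks between CR44077 and slp1 on 2L, the lower of those between CG34050 and CG14147 on 3L and one of the 4 between CheA75a and CG5103. The interval of each reaches below the 20 RPM limit, so the limit falls within the counting error of these peaks. In all 123 of the 516 peaks (23.8%) had under 25 RPM, and a large part of the set lies near the limit.

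Many peaks had the same flanking genes as another peak. Counting the pair of flanking gene names, 512 peaks could be placed in 292 pairs, since 1 peak had a single flanking name and 3 had the shortened name E, from a gene of the E(spl) complex, on both sides. Of these pairs 185 held 1 peak, 60 held 2, 21 held 3 and 26 held 4 or more. The 107 pairs with at least 2 peaks (36.6%) held 327 peaks, or 63.9% of those counted. Some of this comes from peaks that touch, as 40 peaks overlapped the next one, and with peaks within 500 bp merged the number of pairs with several was 76, holding 49.3% of the merged peaks. With peaks of at least 40 RPM alone it was 34 of 155 pairs, holding 43.7% of those peaks. In the gaps between Release 6 genes on 2L, 63 of 126 peaks were alone in their gap. Peaks alone in their pair had a median of 36.6 RPM (186 peaks, with the one that has a single name) and those with company one of 35.6 RPM (330 peaks, with the 3 at E). Within a pair the highest peak was in the median 2.04 times as high as the lowest, and at most 19.7 times, at CG6168 and CG6163. The pairs with several peaks spanned from 860 bp to 63462 bp, with a median of 7664 bp.

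**Figure D3:**
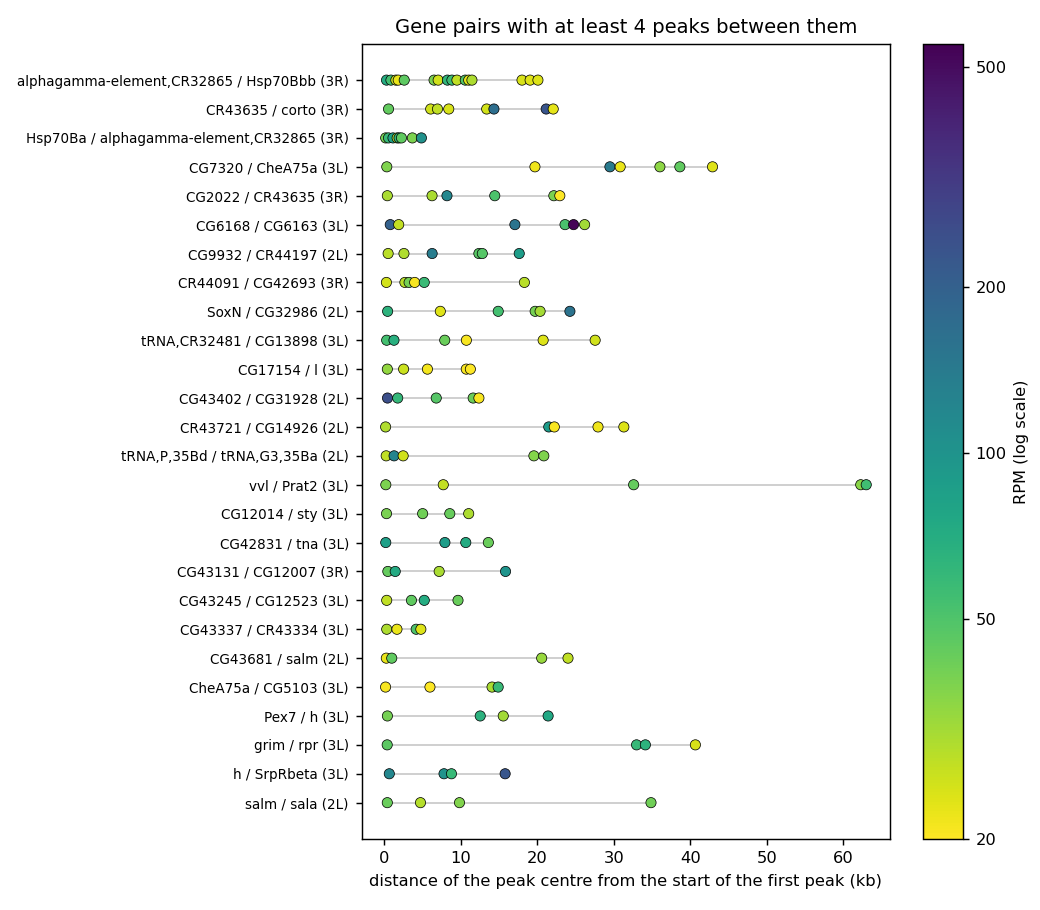
The 26 gene pairs with at least 4 peaks between them, 1 per line with the arm in brackets, each point a peak placed at the distance in kb of its centre from the start of the first peak and shaded by RPM (log scale). The pair vvl/Prat2 reaches over 63462 bp with 5 peaks of 27.0 to 55.1 RPM, and at CG6168/CG6163 a peak of 530.9 RPM stands beside peaks of 31.7 and 51.9 RPM.

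The pair with most peaks lies among repeated genes. Between the non-coding alphagamma-element,CR32865 and the heat shock gene Hsp70Bbb on 3R lay 16 peaks of 22.3 to 71.7 RPM, and 8 more of 30.1 to 104.4 RPM lay between Hsp70Ba and alphagamma-element,CR32865. Hsp70Ba and Hsp70Bbb are near-identical copies of the gene for the Hsp70 chaperone, and the alphagamma elements between them are repeated as well. The 24 peaks span 30570 bp, from 8294365 to 8324934, and make up 14.5% of the peaks between genes on 3R. They are short, with a median length of 393 bp against 679.5 bp for the whole set, and a median RPM of 39.2. The sources used here do not say how the assembly placed reads that fit several copies, so the value of any 1 of them is uncertain. Without these 24 peaks the median RPM of the set was 35.6 and 105 of 290 pairs held several peaks.

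Outside this cluster, corto, a gene for a chromatin-associated protein, had 8 peaks on 1 side. The peaks between CR43635 and corto spanned 22356 bp on 3R and had, in order along the arm, 44.2, 25.5, 27.5, 24.4, 24.9, 168.3, 228.6 and 22.9 RPM. The pair at 168.3 and 228.6 RPM stood far above the other 6. Of these, the peaks of 24.9 and 22.9 RPM overlap the ends of the peaks at 168.3 and 228.6 RPM. On the far side of CR43635, toward CG2022, lay 6 peaks over 23208 bp with 30.6, 30.6, 119.0, 51.4, 39.0 and 20.3 RPM. Here the peak of 119.0 RPM stood above the other 5, of which none passed 51.4 RPM. With 14 peaks, the 100000 bp of 3R that begin at 800001 held the second highest number in any such window, after the window of the Hsp70B peaks with 16.

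CG7320 and CheA75a, whose product is a chemosensory protein, flank 7 peaks over 43105 bp on 3L. They had 37.9, 21.8, 141.8, 22.3, 35.3, 45.2 and 23.4 RPM. On the other side of CheA75a, toward CG5103, were 4 more, at 20.8, 20.3, 30.6 and 59.2 RPM, so that 11 peaks had CheA75a as a neighbour. The gap between CG6168 and CG6163, also on 3L, held the largest spread, with 197.9, 27.0, 153.2, 51.9, 530.9 and 31.7 RPM over 26351 bp. The peaks of 27.0 and 51.9 RPM overlap the ends of their high neighbours at 197.9 and 530.9 RPM.

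SoxN, a Sox family gene of neural stem cells and early neuroectoderm, lies beside 7 peaks. The 6 between SoxN and CG32986 on 2L had 65.4, 23.4, 53.5, 39.997, 31.2 and 156.4 RPM and spanned 24789 bp, with the highest farthest from SoxN. The seventh, on its other side toward CG42712, had 22.9 RPM. The highest, from 8858382 to 8859428, is the peak with the CACGTG shown above. On Release 6 the long non-coding RNA gene CR45365 splits this stretch into a gap of 22338 bp beside SoxN and one of 9945 bp, with 3 peaks each. The profile depends on the caller, as only 2 of the 6 peaks overlap a MACS peak, the highest of them one of 133.5 RPM. MACS also holds a peak of 269.1 RPM from 8851365 to 8852566, nearer to SoxN, where Qseq has none.

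CG9932 and CR44197 on 2L flank 6 peaks in a gap of 29662 bp, from which both genes run outward. They had 28.1, 29.6, 136.1, 47.3, 47.8 and 88.3 RPM, and this is the Release 6 gap on 2L with most peaks. The peaks of 47.3 and 47.8 RPM overlap, and with them merged the gap holds 5, as many as the next one. Next was the gap of 48462 bp between CG43402 and CG31928 with 5, at 247.8, 60.3, 47.8, 42.1 and 20.8 RPM. The farther from CG43402 a peak lay, the lower was its RPM, over 12589 bp of the gap. However, the intervals of the peaks at 60.3 (49.8 to 72.3), 47.8 (38.5 to 58.6) and 42.1 RPM (33.4 to 52.3) overlap. Per length the order was another, with 46.1 RPM per kb for the peak of 60.3 RPM and 82.1 for that of 47.8 RPM.

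Further pairs had 5 or 6 peaks. Between tRNA,CR32481 and CG13898 on 3L lay 6 peaks of 20.8 to 68.0 RPM, and between CR44091 and CG42693 on 3R 6 of 20.8 to 58.2 RPM. At vvl, a POU factor gene of the trachea and nervous system, the 5 peaks toward Prat2, a gene of purine synthesis, had 38.4, 27.0, 43.6, 35.8 and 55.1 RPM. They formed the widest span of all pairs, and another pair of peaks lay toward CG32392. In all, 8 peaks had vvl as a neighbour, not all of them in these pairs. CR43721 and CG14926 flank 5 peaks of 20.8 to 89.9 RPM, CG17154 and a gene with the shortened name l flank 5 of 20.3 to 34.3 RPM, and the tRNA genes tRNA,P,35Bd and tRNA,G3,35Ba flank 5 of 25.5 to 123.1 RPM.

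Among the pairs with 4 peaks were several at genes that pattern the embryo. The pair-rule gene h, which encodes a repressor of the same class as m8, had 4 peaks on each side. Toward SrpRbeta, a gene of the signal recognition particle receptor, these had 117.9, 100.3, 58.7 and 227.5 RPM, and toward Pex7, a gene of peroxisomal import, 39.997, 66.0, 31.7 and 75.3 RPM. All peaks but 1 on the SrpRbeta side were thus above all on the Pex7 side. The gene salm, a zinc finger gene of the spalt locus, also had 4 on each side, at 22.3, 44.7, 33.2 and 27.5 RPM toward CG43681 and at 42.6, 29.1, 37.4 and 41.0 RPM toward sala. The 8 peaks at salm thus lay between 22.3 and 44.7 RPM, around the median of 35.8 RPM for the whole set.

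The cell death genes grim and rpr flank 4 peaks over 41040 bp on 3L, with 46.2, 59.7, 65.4 and 24.4 RPM. Those at 59.7 and 65.4 RPM lie next to each other, with the MACS table holding both as 1 peak. Other pairs with 4 peaks were CG42831 and tna, a gene for a chromatin regulator, at 42.6 to 87.8 RPM, CG43131 and CG12007 at 30.6 to 99.2 RPM, CG43245 and CG12523 at 27.5 to 71.2 RPM, CG12014 and sty, an inhibitor of receptor tyrosine kinase signaling, at 30.1 to 43.1 RPM, and CG43337 and CR43334 at 22.3 to 50.4 RPM.

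On 2L the width of the gaps could be set beside the peaks. Release 6 leaves 2444 gaps there with a median width of 451.5 bp, and the 87 gaps that hold a peak between genes (3.56%) have a median width of 9945 bp. The share of gaps with a peak went from 0.274% of those under 2 kb to 29.3% at 20 to 50 kb and to 2 of 3 above that. Per length of gap the numbers were much closer, with 2.63, 2.23, 1.55, 2.20 and 2.13 peaks per 100 kb in the classes from 2 kb up, and 0.615 in gaps under 2 kb. A peak counts here only if it fits whole into the gap, which lowers the number in narrow gaps by construction. Gaps of at least 20 kb hold 28.0% of the gap bases and 41 of the 126 peaks that lie in gaps (32.5%). Over all gaps, width and number of peaks had a Spearman correlation of 0.27, which describes gaps of 1 arm and 1 library.

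**Figure D4:**
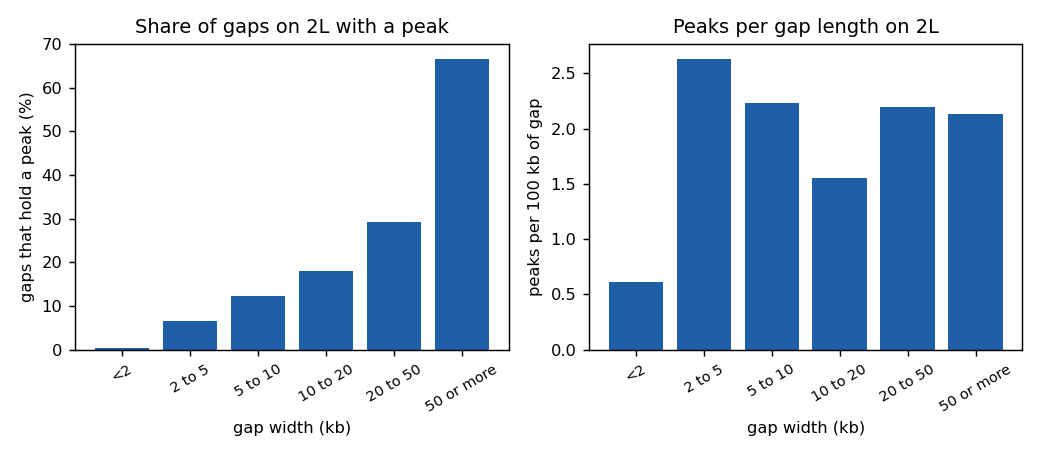
Gaps between Release 6 genes on 2L by width in kb, with the share of gaps that hold a peak between genes (left, %) and the number of such peaks per 100 kb of gap (right). The share goes from 0.274% in the narrowest class to 66.7% in the widest, while the number per length stays between 1.55 and 2.63 in all classes from 2 kb up.

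Within their gaps the distance of the peaks to gene ends was taken from the nearer edge of each peak. That edge lay a median of 2320 bp from the nearest end of a gene, with quartiles of 873 and 5016 bp. Of the 126 peaks 35 (27.8%) had this edge within 1 kb of an end, while 30.7% of the single gap bases lie that near. The rest of a peak lies farther off than its nearer edge, so the 2 shares are unlike measures. The nearest end was a 5′ end for 75 (59.5%), and 52.8% of the gap bases are nearest to one. By the direction of the flanking genes, 36 peaks lay in divergent gaps, where both genes start, at 1.996 per 100 kb, and 75 in tandem gaps at 2.17 per 100 kb. Convergent gaps, where both genes end, held 15 peaks at 1.05 per 100 kb, the lowest of the 3.

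In base composition the peaks between genes on 2L resembled those in genes. Their GC content was 41.8%, as in genes, and 39.97% over the gaps. Soft-masked repeats made up 17.5% of their bases against 16.6% in genes and 20.2% of the gaps, and 2 of the 154 peaks were masked over more than 50% of their length. GATC stood at 1.99 per kb in them, 1.98 in peaks in genes and 1.96 in the gaps, against 2.63 over 2L as a whole. No GATC lay inside 40 of the 154 peaks, and none within 10 bp of 26 of them.

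The motifs stood in peaks between genes at shares from near to somewhat above those of other windows of 2L, and peaks in genes, which are longer, had larger shares for both E box variants and for the N box. CACGTG or CACGCG stood in 31 of 154 peaks (20.1%), against 30.7% of the peaks in genes, 17.9% of all windows of 653 bp on 2L, which is near the median length of these peaks, and 16.1% of such windows between genes. Per kb these were 0.351, 0.424, 0.314 and 0.280 matches. The N box CACNAG stood in 84 peaks (54.5%), against 61.3% in genes and 55.2% and 50.2% of the windows, and CANNTG in 98.1%, 97.6%, 96.1% and 96.0%. CACGAG stood in 22 peaks (14.3%), against 20.6%, 13.7% and 11.8%. A Su(H) site, as CGTGGGAA, TGTGGGAA, CGTGAGAA or TGTGAGAA, stood in 15 peaks (9.74%), against 9.07% in genes and 6.62% and 6.65% of the windows, or 0.145, 0.104, 0.105 and 0.107 per kb. Of its forms TGTGGGAA stood in 8 peaks (5.19%), against 2.72% of all windows, and CGTGGGAA in 4 (2.597%), against 1.27%. TGTGAGAA stood in 4 (2.597%), against 1.92%, while CGTGAGAA stood in 0 peaks, against 0.874%. CACGCG alone stood in 23 peaks (14.9%), against 24.4% of the peaks in genes, 11.2% of all windows and 9.34% of those between genes. All motifs were searched on both strands, CACGAG is 1 of the forms of CACNAG, and CACGTG 1 of those of CANNTG. In the central 300 bp, 14 peaks (9.09%) held CACGTG or CACGCG, against 11.3% of the peaks in genes and 8.60% of all windows of that length. A Su(H) site stood in the centre of 4 (2.597%), against 3.15% in genes and 3.08% of the windows. Of its forms TGTGAGAA stood there in 3 peaks, CGTGGGAA in 1, and TGTGGGAA and CGTGAGAA in 0. All windows gave 0.879%, 0.579%, 1.24% and 0.404% in the same order. CACGCG alone stood in the centre of 10 peaks (6.49%), against 8.89% of the peaks in genes, 5.26% of all windows and 4.38% of those between genes. Its larger share in genes was thus also seen at equal length. Over whole peaks the shares with CACGCG or a Su(H) site were thus above those of the windows. In the centre the share with CACGCG was still above them, while that with a Su(H) site was not. These differences were not tested.

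The same library was also searched by MACS, and 77.1% of all 2355 Qseq peaks on the 3 arms overlap a MACS peak above 20 RPM. Of the 516 peaks between genes 398 (77.1%) do, and of the 1839 in genes 1418 (77.1%), so that the set stood at the background. The share was higher for higher peaks, from 67.9% below 30 RPM to 77.7% at 30 to 60, 88.8% at 60 to 120 and 91.5% from 120 RPM up. In genes the same classes gave 63.8%, 77.4%, 85.9% and 91.3%. The 24 peaks of the Hsp70B cluster stood apart with 7 (29.2%), and without them the share was 79.5%. As both callers read 1 library, an overlap is no independent evidence. The 10 highest peaks between genes all had a MACS peak, at 583.3 RPM for Rh5 and 368.8 RPM for CG6168 and CG6163. Where both callers gave a value, the Qseq RPM was in the median 0.936 of the MACS RPM, with quartiles of 0.516 and 1.13.

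Some strong peaks were given by Qseq alone, and they are named here after their values were seen. The highest was 177.6 RPM (159 to 198) between Rfx, a gene for a factor of sensory neurons, and cwo, which encodes a repressor related to the Hairy and E(spl) class. Then followed the last peak at chinmo with 173.0 RPM, a peak of 153.2 RPM between CG6168 and CG6163, the 123.1 RPM peak between the tRNA genes and the peaks of 117.9 and 100.3 RPM between h and SrpRbeta. Around h the 2 callers gave quite different pictures. MACS held 3 peaks between h and SrpRbeta at 376.6, 216.6 and 277.9 RPM, of which the one at 216.6 RPM alone overlaps a Qseq peak, and 4 between Pex7 and h at 33.8, 122.6, 72.2 and 133.5 RPM, of which those at 33.8 and 72.2 RPM do.

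Regulators of neural fate and of patterning are a small part of the flanking genes, but a large share of these regulators flank a peak. The 516 peaks carry 531 flanking names, of which 505 (95.1%) matched a Release 6 gene, 447 of them protein-coding, 50 for long non-coding RNA and 6 for microRNA. Over the 3 arms 505 of 11216 genes (4.50%) lie beside a peak between genes, and 5.08% of protein-coding genes. Of 37 neuroblast and neural fate regulators on these arms 19 (51.4%) do, beside 42 peaks. Cell death genes follow with 3 of 7 (42.9%), which are the neighbours grim, rpr and skl at 1 locus, beside 5 peaks. Segmentation and patterning genes had 13 of 41 (31.7%) and 34 peaks, and proneural genes and partners 3 of 10. Notch pathway genes had 4 of 14 and GATA, fork head and tracheal factors 3 of 12. Axon guidance and adhesion genes had 11 of 52 (21.2%), cell cycle genes 3 of 21 and genes of the Hox list 1 of 11. Ribosomal protein genes, the common housekeeping set, had 3 of 54 (5.56%), near the share of all genes.

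**Figure D5:**
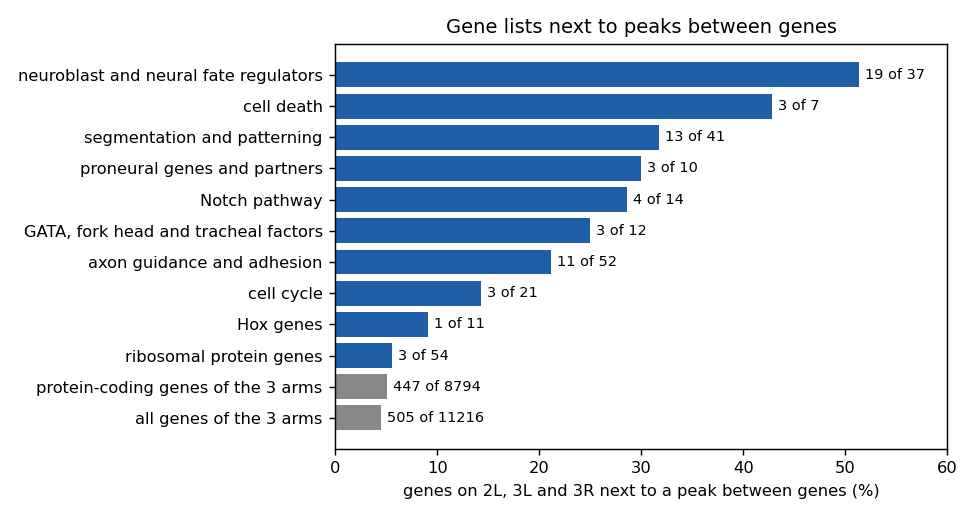
Share of the genes of each list on 2L, 3L and 3R that flank a peak between genes (%), with the counts beside each bar and all genes and all protein-coding genes in grey. Neuroblast and neural fate regulators reach 51.4%, while ribosomal protein genes (5.56%) lie close to all protein-coding genes (5.08%).

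The distance to the neighbouring genes moves with these shares. On 2L the wider of the 2 distances from a protein-coding gene to the next one has a median of 912 bp, but 23454 bp for the 32 genes of the neuroblast and segmentation lists, and 22778.5 bp for the 138 genes beside a peak. Among all protein-coding genes with a distance of at least 20 kb, 29.7% of 256 lie beside a peak. Of the 17 list genes with such a distance 70.6% do, and of the 15 without one 13.3%. Over all 2657 protein-coding genes of 2L, those with a wide distance included, the share was 5.19%. The part of this distance in the counts on the lists was not tested.

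In the neural list the highest peaks lay beside sens, zfh1, hth and Dr. The peak between Poc1 and sens, a zinc finger gene of sensory organ precursors, had 208.8 RPM (189 to 230). The highest peak beside zfh1, a zinc finger homeodomain gene, had 199.5 RPM (180 to 220) and a second one 23.9 RPM. Beside hth, whose product is a partner of Hox proteins, the values were 185.4 RPM (167 to 206) and 20.3 RPM. Dr, a homeobox gene of the dorsal columns of the nervous system, had a single peak of 177.1 RPM (159 to 197). All 4 have a MACS peak too, at 179.7, 182.8, 157.9 and 153.2 RPM in the same order. At both genes with 2 peaks the second was near the lower limit of the table. The Snail family genes esg, wor and sna had highest peaks of 101.8 RPM (88.1 to 117), 95.6 RPM (82.3 to 110) and 42.1 RPM (33.4 to 52.3), and the temporal gene cas had 24.4 RPM (17.9 to 32.5), these 4 being named after their values were seen.

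In the patterning list h was followed at a distance by other genes. Its highest peak had 227.5 RPM (207 to 250), while drm, an odd-skipped family gene, reached 71.2 RPM (59.7 to 84.1). The gap gene kni reached 69.6 RPM (58.3 to 82.4) and the pair-rule gene slp2 64.4 RPM (53.6 to 76.8). The intervals of these 3 overlap, and none reaches that of h. In the Hox list, which holds neighbours in the same gene complex, only bcd, the anterior determinant, had a peak between genes, of 126.7 RPM (111 to 144) toward Ama.

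Genes of the Notch pathway had peaks between genes on both sides of the median of the set, 35.8 RPM. In the Notch list fng, whose product modifies the receptor with sugars, had 81.6 RPM (69.3 to 95.4), and mib1, which encodes a ubiquitin ligase for the ligands, had 63.9 RPM (53.1 to 76.2). Both peaks lie above the upper quartile of 59.3 RPM. The Bearded family genes BobA and Tom share a gap with peaks of 30.6 and 21.8 RPM. At the E(spl) complex, whose genes are not in the list and have shortened names in the table, the peaks with E on both sides had 99.7, 80.0 and 57.1 RPM, and those between E and Kaz-m1 had 51.4 and 41.0 RPM. In the cell cycle list stg, the Cdc25 gene, reached 45.2 RPM (36.2 to 55.7), CycE 39.5 RPM (31.1 to 49.4) and trbl, an inhibitor of String, 24.4 RPM (17.9 to 32.5). The median of the set, 35.8 RPM, lies just below the interval of the higher stg peak and inside that of the higher CycE peak. It lies above the interval of trbl. A second peak beside stg had 29.1 RPM and one beside CycE 28.6 RPM, both below this median. The 2 peaks beside CycE lie 18 bp apart and become 1 when peaks within 500 bp are merged. Both overlap a MACS peak, which at the higher one has 68.6 RPM, while the higher stg peak overlaps one of 31.7 RPM. Both stg and CycE also have a Qseq peak inside the gene. The proneural list had 50.9 RPM (41.3 to 62.04) at Fer2, 23.9 RPM (17.5 to 31.9) at tap and 22.3 RPM (16.2 to 30.1) at ato. At the cell death genes the peaks of grim and rpr reached 65.4 RPM (54.5 to 77.9) and skl had 39.5 RPM (31.1 to 49.4).

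In the adhesion and guidance list Sema-5c, a semaphorin gene, stood first with 204.7 RPM (185 to 226) toward CG17154 and a second peak of 146.5 RPM beside it. Then came klg with 77.9 RPM (65.9 to 91.4), Nrt with 71.7 RPM (60.2 to 84.7) and CG34127, the neuroligin gene Nlg3, with 69.1 RPM (57.8 to 81.9). These 3 encode cell surface proteins, and their intervals overlap. Among the GATA, fork head and tracheal factors croc had 60.3 RPM (49.8 to 72.3), vvl 55.1 RPM (45.1 to 66.6) and fkh 30.1 RPM (22.9 to 38.9). Many flanking genes were marked inside as well, as 125 of the 505 matched genes (24.8%) had a Qseq peak within the gene, against 10.1% of all genes of the 3 arms.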

How the data were processed

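The authors cut DNA of whole embryos with DpnI, amplified it over 21 PCR cycles, sequenced reads of 100 bp and assembled them with SeqMan NGen 12.2. The deposited Qseq tables give a count of reads, the RPM, a p-value and the position of each peak, and were limited by the authors to peaks above 20 RPM with a p of 0.05 or less. The deposited p-values were not used further, nor were tables that repeat these peaks. The deposited MACS tables give RPM for the same library, with neither version nor settings of MACS in the sources used here, and a score of each peak that was not used. All columns used belong to the un-driven m8 DamID, and 0 columns were left unmatched. The library total of 1925155 reads is the count divided by the RPM.

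Flanking genes were taken as the authors name them, and gene names that had lost the text after a bracket were not restored. Peaks of 1 arm were called shared with MACS at an overlap of 1 bp. Gaps on 2L are stretches in no gene of the RefSeq annotation of Release 6, from which the sequences were read as well. The steps were tested on simulated data. Named are the 10 highest peaks, the pairs with at least 4 peaks, up to 4 genes per list with the highest RPM and 3 peaks at the lower limit. The set of peaks, the gene lists and this rule were chosen with earlier results of these data known. Merged peaks, peaks of at least 40 RPM, RPM per kb, the MACS tables, Release 6 genes and the central 300 bp were tried as alternatives, and leaving out the Hsp70B cluster was added after seeing the data. The work used matplotlib 3.10.9, scipy 1.17.1, pandas 2.3.3 and numpy 2.4.6 under Python 3.11.15.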

Additional observations from a re-analysis of the deposited data

Results flagged for a closer look

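A signal between genes stood in the MACS table where the Qseq table holds no peak. It is a MACS peak from 11561311 to 11562745 on 2L, between CG43438 and Mst33A, with 431.7 RPM, and the authors' Qseq table has no entry there. It is the highest of 193 MACS peaks between genes (38.1% of 507) without a Qseq peak, and was followed by 411.4 RPM between CG13897 and tRNA,CR32480, 376.6 RPM between h and SrpRbeta, 355.3 RPM between scyl and CG6175 and 308.0 RPM between CG12014 and sty. Both callers read the same library, and why they differ there was not tested.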

How the results depend on the processing

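Some values depended on the table or the limit. With MACS peaks the share between genes was 19.68% in place of 21.91% and the median level 47.27 RPM in place of 35.84 RPM. With the genes of Release 6 the share on 2L was 18.3% in place of 22.19%. At a limit of 40 RPM the median was 67.53 RPM and 34 gene pairs held several peaks in place of 107. In the central 300 bp CACGTG or CACGCG stood in 9.091% of the peaks in place of 20.13%, a Su(H) site in 2.597% in place of 9.74% and CACNAG in 30.52% in place of 54.55%, where the window is shorter by construction. The ratio of the median levels between genes and in genes was 0.852, or 1.01 per kb of peak. No paired analysis was possible because all peaks come from 1 library. For the same reason no replicate could be left out, and error beyond that of counting was not estimated. Peaks near 20 RPM are those the depth limits most.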
